A study of Mus musculus with 5 samples.

Results

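The intergenic shared sites were stretches of mouse chromatin between protein-coding genes at which peaks of the transcription factors SOX11 and SOX4 overlapped. They numbered 761 of the 21270 SOX11 peaks. Members were selected on the measured positions of the peaks: a SOX11 peak had to overlap a SOX4 peak by 1 bp or more, and its centre had to lie outside all protein-coding gene bodies and promoters, with the nearest protein-coding start no farther than 100 kb. A promoter reached from 1 kb before a start to 100 bp past it, by GENCODE M1 on genome build mm9. Of all SOX11 peaks, 2522 (11.9%) overlapped one of the 2669 SOX4 peaks. Because that overlap chose the members, it is given as a description only. The other shared peaks lay in promoters (571), introns (846) and exons (84), or between genes but beyond 100 kb from a start (260).

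The ChIP-seq libraries were made from primary keratinocytes, the main cells of the epidermis, grown from newborn mice that were Krt14-Cre;Sox11fl/fl;Sox4fl/fl, so that both genes were deleted in cells with Krt14 promoter activity. The label gives the strain as mixed 129SvEx:C57BL/6, and the Krt14-Cre line that was crossed in is FVB/N. Cells received a lentivirus (pINDUCER21) with a doxycycline-inducible Sox11-Flag or Sox4-Flag gene and doxycycline for 24 h, and chromatin was precipitated with mouse anti-FLAG. Each factor was thus measured as a tagged protein supplied by virus, at a level that need not equal that of the endogenous gene, in 2 replicates. Both replicates of a factor stand behind 1 list, so no spread between replicates could be given. A single control library, called input in its title and IgG in its antibody field, has no list among the files used here. The lists hold positions alone, without a height, and the depth of the libraries is unknown.

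SOX11 and SOX4 belong to the SOXC group of HMG-box proteins, which bind the minor groove of DNA at short sequences close to CATTGT or CTTTGT and bend the helix. Both are active in embryonic skin and in progenitor cells of many tissues. Regulatory DNA of keratinocytes often carries motifs of AP-1, the dimers of FOS and JUN proteins, and of TEAD, RUNX, GRHL, p63 and KLF proteins. Enhancers between genes can act on starts at a distance, and the nearest start is not always the one they act on.

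The sequences of a few members are shown first, since their motifs carry most of what follows. The earliest member of the SOX11 list, the 2 earliest members with both a SOX and an AP-1 core, and the members nearest to Krt6a, Fos and Myc are printed whole, on the plus strand of mm9. Krt6a, Fos and Myc were picked after their values were seen. Capitals mark the SOX core (CATTGT or CTTTGT, either strand) and the AP-1 core (TGAGTCA or TGACTCA).
site before Malat1, chr19:5803447-5803704: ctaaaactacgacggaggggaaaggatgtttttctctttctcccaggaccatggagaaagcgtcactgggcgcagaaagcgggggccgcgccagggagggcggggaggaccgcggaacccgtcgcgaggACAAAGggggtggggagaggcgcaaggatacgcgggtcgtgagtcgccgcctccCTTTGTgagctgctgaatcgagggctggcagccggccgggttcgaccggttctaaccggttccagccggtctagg
Kcna4 site, chr2:107073015-107073272: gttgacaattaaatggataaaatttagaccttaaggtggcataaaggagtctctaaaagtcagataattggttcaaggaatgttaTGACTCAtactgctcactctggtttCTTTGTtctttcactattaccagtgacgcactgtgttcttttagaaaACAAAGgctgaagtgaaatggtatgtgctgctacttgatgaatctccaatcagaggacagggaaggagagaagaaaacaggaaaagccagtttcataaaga
Gm355 site, chr2:128370378-128370635: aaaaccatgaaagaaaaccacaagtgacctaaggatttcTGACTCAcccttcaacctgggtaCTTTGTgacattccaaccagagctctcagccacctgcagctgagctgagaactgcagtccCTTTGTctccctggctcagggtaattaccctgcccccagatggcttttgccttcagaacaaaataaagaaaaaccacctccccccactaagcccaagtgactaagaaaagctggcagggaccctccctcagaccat
Krt6a site, chr15:101527898-101528155: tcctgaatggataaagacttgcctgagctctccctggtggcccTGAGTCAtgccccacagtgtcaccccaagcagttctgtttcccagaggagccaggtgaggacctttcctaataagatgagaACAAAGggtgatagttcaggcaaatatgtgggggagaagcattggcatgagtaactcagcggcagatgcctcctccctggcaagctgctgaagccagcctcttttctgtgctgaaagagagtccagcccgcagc
site in Pvt1 (nearest coding start Myc), chr15:61914836-61915093: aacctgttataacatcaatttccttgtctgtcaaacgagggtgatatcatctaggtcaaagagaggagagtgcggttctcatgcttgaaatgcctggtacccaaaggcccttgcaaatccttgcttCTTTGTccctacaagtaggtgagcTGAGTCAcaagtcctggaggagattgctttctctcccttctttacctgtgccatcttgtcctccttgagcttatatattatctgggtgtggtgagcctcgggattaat
Fos site, chr12:86790771-86791028: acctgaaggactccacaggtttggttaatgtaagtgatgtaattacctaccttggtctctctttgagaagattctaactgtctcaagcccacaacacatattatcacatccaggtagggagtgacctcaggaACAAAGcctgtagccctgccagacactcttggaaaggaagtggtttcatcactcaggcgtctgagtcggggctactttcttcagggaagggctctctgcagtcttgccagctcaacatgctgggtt

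The site before Malat1 held a pair of SOX cores and no AP-1 core. The Kcna4 and Gm355 sites each held 2 SOX cores and 1 AP-1 core. The Krt6a site held 1 of each, as did the Myc site inside the non-coding gene Pvt1. The Fos site held 1 SOX core and no AP-1 core.

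A closer view of the SOX core is given by aligned stretches, with 10 bases on each side. In each member the core nearest to the peak centre was taken and read in the direction in which it spells CATTGT or CTTTGT, which is in capitals. The first group comes from among the earliest members of the list.
Iqca, chr1:92061089-92061114, plus strand: atctagagttCTTTGTtggcactggc
Kcna4, chr2:107073115-107073140, plus strand: actctggtttCTTTGTtctttcacta
1110067D22Rik, chr11:20787301-20787326, plus strand: gctgtgccagCTTTGTtccctggact
Krt42, chr11:100148424-100148449, minus strand: agcgctcaggCTTTGTctagggactc
Gm355, chr2:128370490-128370515, plus strand: actgcagtccCTTTGTctccctggct
Gyltl1b, chr2:92213133-92213158, plus strand: cacctctgctCTTTGTctctggagcc
Slc18a1, chr8:71551824-71551849, plus strand: ccccgccaacCTTTGTtcctctcgca
Ncaph, chr2:126962872-126962897, plus strand: tgaatgcctcCTTTGTttcagagtta

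All 8 of these early members carried CTTTGT at the core nearest to the centre. The second group comes from members near listed genes of adhesion, the cytoskeleton and signalling and near the transcription factor gene Maf.
Itga6, chr2:71576827-71576852, minus strand: atgtcatagtCTTTGTtcattagtcg
Itgb1, chr8:131143196-131143221, minus strand: tcttgtcctcCATTGTttcccagtag
Col17a1, chr19:47772943-47772968, minus strand: tgaagagagtCTTTGTgtgaacatgt
Plec, chr15:75989398-75989423, plus strand: tcaaatatggCTTTGTtctggggttt
Dsp, chr13:38236941-38236966, plus strand: ggaaaggacgCTTTGTtccagtccac
Vcl, chr14:21722587-21722612, plus strand: catgacaggtCATTGTtctttctgtt
Tpm1, chr9:66956038-66956063, plus strand: tgattgagtcCTTTGTtcttcagcca
Tgfbr2, chr9:116128026-116128051, minus strand: aagtatttccCTTTGTgccagtgcca
Tgif1, chr17:71186364-71186389, minus strand: tgactcacccCTTTGTtgtatacagg
Notch1, chr2:26388882-26388907, plus strand: cacaaagcctCTTTGTtcctcccagc
Sav1, chr12:71099353-71099378, minus strand: tcaatctggcCTTTGTcttcattgtt
Cyr61, chr3:145337841-145337866, plus strand: tgtgcctgccCTTTGTgtcccattca
Dusp7, chr9:106294770-106294795, minus strand: acacaaaaggCTTTGTacagagcctg
Maf, chr8:118288595-118288620, plus strand: aggatggcttCTTTGTtgcagttggc

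Of this group, Itgb1 and Vcl had CATTGT and the rest had CTTTGT.

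Over the whole set, 649 of 761 members (85.3%, 95% Wilson interval 82.6 to 87.6) held at least 1 SOX core. Sequences of the same length 2 kb downstream of the members held one in 33.5% of cases and those 2 kb upstream in 33.6%. For all such flanking sequences, downstream means towards higher genome coordinates and upstream towards lower ones, whatever the strand of the nearest gene. CTTTGT was present in 573 members (75.3%) and CATTGT in 172 (22.6%), against 23.5% and 13.3% in the downstream sequences. One core was found in 419 members, 2 in 187 and 3 or more in 43, while 112 had none. Rnase1, a secreted ribonuclease, had the member with the most, at 6 cores.

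The bases beside the core were uneven as well. Among 646 members with a core far enough from the peak's edge, the base just before the core was C in 45.4% and A in 2.01%. The base just after it was T in 56.2% and C in 26.2%, and the next base was C in 57.7%. The 8-base word CTTTGTTC, which combines the most frequent bases, was found in 221 members (29.0%) and in 2.50% of the downstream sequences. Of 3414 SOX11-only intergenic peaks with such a core, the base just after it was T in 38.4% and the next base was C in 35.4%. CTTTGTTC was in 8.17% of all 5716 peaks of that class, in 28.8% of the shared intronic sites and in 18.04% of the shared promoter sites. These flanking bases were examined after the sequences had been seen and were not tested.

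Position within the peak was narrow for SOX. Within 25 bp of the SOX11 peak centre, members had 15.0 SOX cores per kb of sequence, against 3.18 in the next 25 bp and 1.16 in the outermost bin, at 475 to 500 bp. The innermost bin held 14.7 per kb in shared intronic, 13.7 in shared promoter and 6.91 in SOX11-only intergenic sites. In members the AP-1 core was spread more broadly, with 1.55 per kb within 25 bp, 2.31 in the next bin, 1.58 at 75 to 100 bp and 0.158 in the outermost bin. Within 25 bp and in the next bin, AP-1 cores per kb were 1.395 and 1.51 in shared intronic sites. They were 2.22 and 2.25 in SOX11-only intergenic sites and 0.140 and 0.420 in shared promoter sites.

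**Figure D1:**
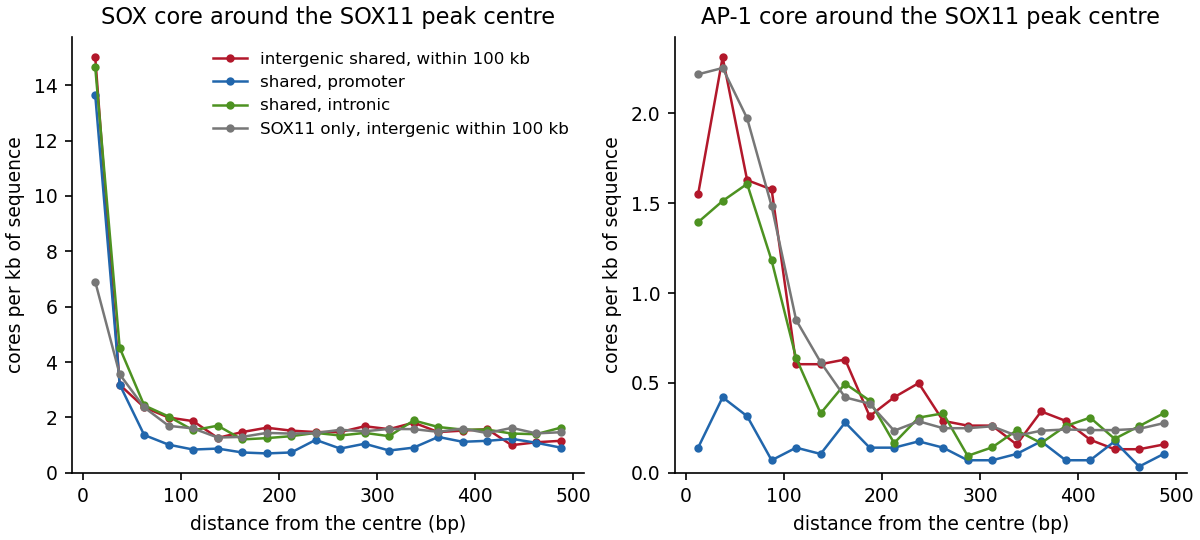
Density of the SOX core (left) and the AP-1 core (right), in cores per kb of sequence on both strands, against distance from the SOX11 peak centre in bp (25-bp bins, both sides joined). Each line is 1 class of SOX11 peaks. The intergenic shared sites reach 15.0 SOX cores per kb in the innermost bin and peak at 2.31 AP-1 cores per kb between 25 and 50 bp.

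Compared with the SOX11 peaks of the same kind of location that lacked a SOX4 peak, the intergenic shared sites held a SOX core more often. The share was 60.2% in the 5716 SOX11-only intergenic sites within 100 kb, an odds ratio of 3.84 for members over that class (95% interval 3.12 to 4.72, 2-sided Fisher's exact test, Benjamini-Hochberg adjusted p = 4.7e-45 over 27 motif tests). These SOX11-only sites stood later in the SOX11 list, and with both classes limited to the first 5000 peaks the odds ratio was 3.24 (Fisher's exact test, adjusted p = 9.2e-14). That limit did not match the classes by place. The first 10% of the list held 52.0% of all members and 4.25% of all SOX11-only intergenic sites. The part of place in the difference was not tested. Shared intronic sites had a core in 86.4%, and the odds ratio of 0.912 (0.688 to 1.21) did not pass the test (Fisher's exact test, adjusted p = 0.58).

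Shared promoter sites held a SOX core less often than members, at 77.4% (odds ratio 1.69, 1.28 to 2.24, Fisher's exact test, adjusted p = 0.0013). The median G and C content was 50.0% in the members and 64.7% in the shared promoter sites, and among peaks with 40 to 60% G and C the odds ratio was 1.00 (Fisher's exact test, adjusted p = 1). The difference also no longer passed the exact test within 50 bp of the centre (1.24, adjusted p = 0.21) or among the first 5000 peaks (1.18, adjusted p = 0.71). With the 10-letter SOX motif it was larger (2.26, Fisher's exact test, adjusted p = 5.5e-11). The 10-letter motifs, here and below, allowed 1 mismatch at any position, also within the core.

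Of the 9 cores, AP-1 had the largest odds ratio between members and shared promoter sites. An AP-1 core was found in 256 members (33.6%, interval 30.4 to 37.1), against 3.81% of sequences 2 kb downstream and 4.99% upstream. In shared promoter sites it was found in 29 of 571 (5.08%), close to the 3.15% and 4.55% of their own downstream and upstream sequences. The odds ratio was 9.47 (6.33 to 14.2, Fisher's exact test, adjusted p = 8.6e-40). Among peaks with 40 to 60% G and C it was 5.39 (671 members and 176 promoter sites, Fisher's exact test, adjusted p = 8.2e-12), and with 50 to 60%, a range added after the data had been seen, 4.08 (325 and 139, adjusted p = 5.0e-06).

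The shared intronic sites had an AP-1 core in 27.4%, fewer than the members (odds ratio 1.34, 1.08 to 1.66, Fisher's exact test, adjusted p = 0.030). That call of the exact test was lost within 50 bp of the centre (1.31, adjusted p = 0.20), with the 10-letter AP-1 motif (1.17, adjusted p = 0.24) and at 40 to 60% G and C (1.19, adjusted p = 0.59). SOX11-only intergenic sites had an AP-1 core in 37.7%, and members did not pass the test against them (odds ratio 0.838, 0.715 to 0.983, Fisher's exact test, adjusted p = 0.083). With the 10-letter motif the odds ratio was 0.784 and passed the exact test (adjusted p = 0.0079), while among the first 5000 peaks it was 1.02 (adjusted p = 1).

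Both cores were present in 218 members, the SOX core alone in 431, the AP-1 core alone in 38 and neither in 74. AP-1 cores were in 33.6% of the 649 members with a SOX core and 33.9% of the 112 without, an odds ratio of 0.985 (0.645 to 1.51, Fisher's exact test, unadjusted p = 1). Among the 546 members in the first 5000 peaks it was 0.59 (exact test, p = 0.072). The same odds ratio was 0.767 in SOX11-only intergenic sites (0.688 to 0.855, exact test, p = 1.9e-06) and 1.51 in shared intronic sites (0.935 to 2.43, p = 0.093), and the difference between classes was not tested. In the 218 members with both, the nearest SOX and AP-1 cores had their centres a median of 48 bp apart (quartiles 23.5 and 78.3), and 13 had them within 10 bp. The median was 50.5 bp in 1210 SOX11-only intergenic sites and 45 bp in 208 shared intronic sites.

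The earliest members with both cores were those nearest to Kcna4, Gm355, Glrp1, Hk2 and Ckap2l. Kcna4 codes for a voltage-gated potassium channel, Hk2 for a hexokinase and Ckap2l for a protein of the mitotic spindle. Their members stood at places 12, 21, 41, 47 and 96 of the SOX11 list. All but the Ckap2l member, which was 32.9 kb downstream, lay upstream of the start, at 57.7 kb for Kcna4, 46.4 kb for Gm355, 24.4 kb for Glrp1 and 71.0 kb for Hk2.

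The other motifs were TEAD (GGAATG), RUNX (TGTGGTT), ETS (CNGGAAGT), CEBP (TTGCNNCAA), GRHL (AACCNGTT), KLF (CACACCC) and p63 (a pair of CATG with 6 bases between), searched on both strands. TEAD cores were in 190 members (24.97%), against 16.6% downstream and 13.8% upstream, and in 11.2% of shared promoter sites (odds ratio 2.64, Fisher's exact test, adjusted p = 1.4e-09), whose own flanks held 13.0% downstream and 14.2% upstream. RUNX cores were in 65 members (8.54%, against 6.57% downstream and 4.47% upstream) and in 2.98% of shared promoter sites (3.04, Fisher's exact test, adjusted p = 0.00017), which lay below their own flanks (6.48% and 9.63%). KLF cores were in 87 members (11.4%, against 5.78% downstream and 7.10% upstream) and in 6.65% of shared promoter sites (1.81, Fisher's exact test, adjusted p = 0.014), whose flanks held 5.25% and 5.08%. Within 50 bp of the centre TEAD alone still passed (2.92, exact test, adjusted p = 2.7e-05), and RUNX (2.59, adjusted p = 0.10) and KLF (1.09, adjusted p = 1) did not.

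GRHL cores were in 33 members (4.34%, against 1.18% downstream and 1.45% upstream) and CEBP cores in 28 (3.68%, against 2.37% and 2.23%). ETS cores were in 45 members (5.91%, against 3.94% and 5.26%). The p63 pair was in 8 members, a share (1.05%) between those downstream (0.657%) and upstream (1.18%). None of these 4 passed the adjusted test against any of the 3 classes by Fisher's exact test, and neither did TEAD, RUNX or KLF against shared intronic or SOX11-only intergenic sites. ETS was the one core with a higher share in shared promoter sites than in members, at 8.76% (odds ratio 0.655, Fisher's exact test, adjusted p = 0.12).

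**Figure D2:**
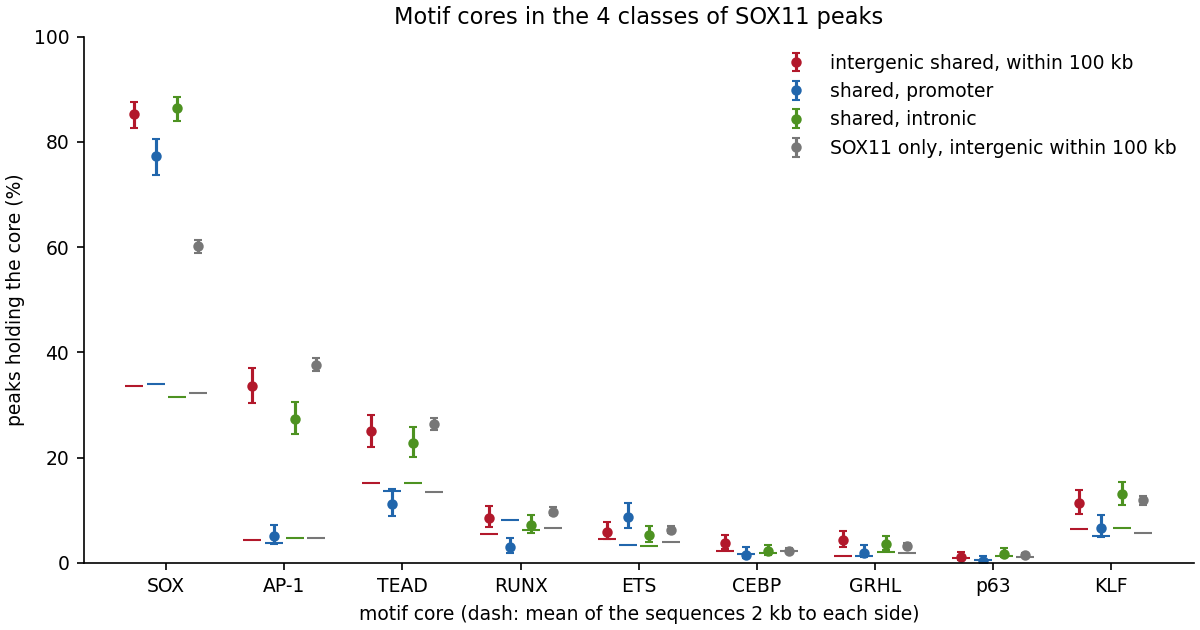
Percent of peaks that hold each motif core, by class of SOX11 peaks. Points are shares with 95% Wilson intervals and dashes of the same colour are the mean of the sequences 2 kb to each side. The intergenic shared sites lie at 33.6% for AP-1, the shared promoter sites at 5.08%.

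A count of all 7-base words, made as a description, had the same sequences at its top. The words that stood out most from the sequences 2 kb to each side were CTTTGTT (340 members, 44.7%, against a mean of 7.88%) and CCTTTGT (287, 37.7%, against 5.26%). The third was TGACTCA, in 33.6% of members against 4.40%. The word CCCGCCC, part of the GC box bound by SP and KLF proteins, was in 8.28% of members, 1.64% of the sequences to their sides and 45.0% of shared promoter sites.

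The SOX4 peak at a member sat close to the SOX11 peak. Each member had a SOX4 peak of its own, and the 2 centres were a median of 21 bp apart, with quartiles of 9 and 49 bp. They were within 50 bp in 577 members (75.8%, interval 72.7 to 78.7), in 67.1% of shared promoter sites (63.1 to 70.8) and in 73.9% of shared intronic sites (70.8 to 76.7). Since overlap with SOX4 is part of the rule, these distances were not tested.

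Members were found mostly in the early part of the SOX11 list. The order of the list is not explained in the sources used here, so place is used as a position and not as a height. The median place of a member was 2033 (quartiles 780 and 5578), against 1511 for shared promoter sites, 1971 for shared intronic sites and 12124 for SOX11-only intergenic sites. In the first 25% of the list were 560 members (73.6%), 76.7% of shared promoter sites and 78.4% of shared intronic sites. The odds ratio of members was 0.846 over promoters (Fisher's exact test, unadjusted p = 0.20) and 0.769 over introns (unadjusted p = 0.026). For the first 10% of the list the odds ratios were 0.764 (exact test, p = 0.017) and 1.01 (p = 0.92), so neither call held at both depths of the list. With at least 50% of the SOX4 peak covered, both passed for the first 25%, at 0.629 (exact test, p = 0.0015) and 0.743 (p = 0.017).

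Motif content changed along the list. When the members were put in 4 groups of near equal size by place, the SOX core was in 94.2%, 91.1%, 84.2% and 71.6% of them, from the earliest to the latest. The AP-1 core was in 34.0%, 41.6%, 31.1% and 27.9%. The median distance between the SOX11 and SOX4 centres was 15, 19, 23 and 35.5 bp. The last member of all, at place 21266, was 14.8 kb upstream of Ces5a, a carboxylesterase gene, and held neither core.

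**Figure D3:**
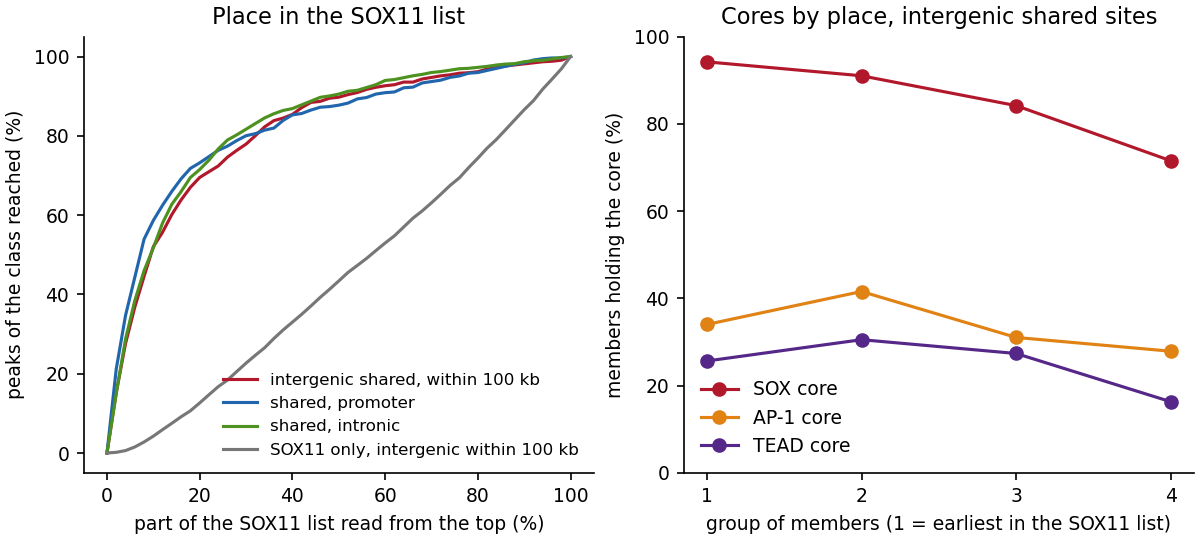
Left, percent of each class of SOX11 peaks reached when the SOX11 list is read from its top (percent of the list). Right, percent of intergenic shared sites that hold a SOX, AP-1 or TEAD core in 4 near equal groups of the members ordered by place. The SOX core falls from 94.2% in the earliest group to 71.6% in the latest.

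The 10 earliest members stood between places 9 and 32. At place 9, the peak lay 905 bp upstream of the start of Malat1, an abundant nuclear long non-coding RNA. Iqca followed at place 11 (11.1 kb upstream), Kcna4 at 12, 1110067D22Rik at 14 (56.3 kb upstream) and Krt42, a type I keratin, at 15 (17.2 kb upstream). Gm355 was at place 21, and Gyltl1b, a glycosyltransferase gene, at 24 with its peak 1.04 kb upstream. Slc18a1, a vesicular monoamine transporter, was at 25 (47.6 kb downstream), Ncaph, a condensin subunit, at 30 (3.21 kb upstream) and Zbtb20, a zinc finger repressor, at 32 (93.6 kb upstream). All 10 held a SOX core, and 8 of them held 2.

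Distance to the nearest start had a median of 23.4 kb (quartiles 10.5 and 47.6), and 24.1 kb in the SOX11-only intergenic sites. Within 2 kb of a start were 23 members, between 10 and 25 kb 216, and between 75 and 100 kb 63. Most members (511, 67.1%) lay upstream of the nearest start, as did 66.6% of the SOX11-only intergenic sites. Distance is part of the rule and was not tested.

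The members closest to a start were those of Gprin1 (1.03 kb upstream), Thbs1 (1.03 kb) and Gyltl1b (1.04 kb). Thbs1 codes for thrombospondin 1, a matrix protein that activates TGF-beta, and its member was at place 205. Just inside the 100 kb limit were sites of Jun (99.9 kb upstream), the tight junction gene Tjp1 (99.2 kb upstream) and 1110067D22Rik (99.0 kb upstream). Just outside it were sites of Mylk4, a myosin light chain kinase gene, at 101.2 kb, and of the protease gene Adamts15 at 101.3 kb.

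**Figure D4:**
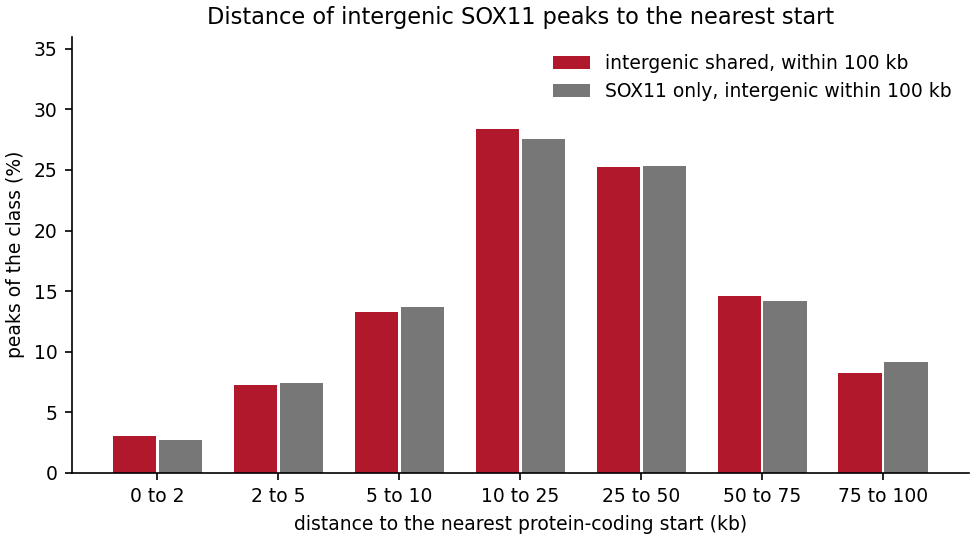
Percent of intergenic SOX11 peaks in each range of distance (kb) from the nearest protein-coding start, for intergenic shared sites and for SOX11-only sites within the same limit. The range from 10 to 25 kb holds 28.4% of the shared and 27.5% of the SOX11-only sites.

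By nearest start, the 761 members fell to 697 protein-coding genes, which is 3.11% of the 22380 in the annotation. Of these genes, 637 had 1 member, 56 had 2 and 4 had 3. Genes with 3 were Cdk19, a kinase of the Mediator complex, Irf2bp2, a transcription cofactor, Glrp1 and 1110067D22Rik. The Cdk19 members lay 9.83, 10.8 and 19.2 kb upstream, and those of Irf2bp2 48.7, 73.2 and 92.3 kb upstream. In all 4 genes every member was upstream.

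Among the genes with 2 members, Maf, Sp3, Klf13 and Nfe2l3 code for transcription factors. The Maf members lay 56.9 and 63.4 kb upstream, at places 436 and 602, and both held a SOX and an AP-1 core. Mapk6 and Sik1 code for kinases, and Dusp7 for a phosphatase that acts on MAP kinases. Both Mapk6 members, 7.81 and 12.7 kb upstream, had 2 SOX cores. Ier3 and Ier5 are immediate early response genes, with members at places 233 and 522 for Ier3 and 244 and 449 for Ier5. Ptma, which codes for prothymosin alpha, had members at places 53 and 71, at 22.5 and 17.1 kb upstream.

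Genes of the cell surface and cytoskeleton with 2 members were Tpm1 (tropomyosin), Amotl2, S100a10 and Sdc1 (syndecan 1). The S100a10 members were 18.8 and 20.4 kb downstream, with 2 SOX cores each. Adamtsl4, Azin1, Bahcc1, Calml3, Ccnl1, Ckap2l, Glce, Gsta4, Hnrnpr, Igsf21, Kcna4, Lao1, Me3, Mocs2, Olfr15, Plin2 and Rap2b also had 2. So did Slc24a3, Smndc1, Tbc1d1, Tfpi, Trak2, Zbtb8b, Zcchc13, Zcchc2, Zfp873 and genes known only by clone or model names. Of all members, 41 (5.39%) had another member within 10 kb and 136 (17.9%) within 50 kb.

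Genes of known pathways were read from 14 lists, of whose 277 annotated genes 31 had a member. These counts are descriptions beside the 3.11% of all protein-coding genes, and the listed genes are near SOX11 peaks more often in general. Of all protein-coding genes 46.6% were the nearest gene of some SOX11 peak, against all 19 of the integrin and 18 of the desmosome list, 24 of 25 of the TGF-beta, 15 of 16 of the Hippo, 34 of 37 of the actin, 19 of 23 of the transcription factor, 15 of 19 of the Notch and 6 of 10 of the AP-1 list. The lists were not tested for this. In the list of AP-1 subunits, 3 of 10 genes had a member, Fos, Jun and Fosl2. The Fos member lay 23.9 kb upstream of its start at place 840, and the Fosl2 member 46.9 kb downstream at place 2578. Of the 3, the Jun member alone held an AP-1 core.

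In the integrins and basement membrane list, 4 of 19 genes had a member. Itga6 and Itgb1 code for integrin subunits, Col17a1 for a hemidesmosomal collagen and Plec for plectin, which ties keratin filaments to hemidesmosomes. Their members lay 6.83 kb upstream for Itga6, 66.4 kb upstream for Itgb1, 6.39 kb upstream for Col17a1 and 29.1 kb downstream for Plec. All 4 held 1 SOX core, and the Col17a1 member also held an AP-1 core.

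Desmosomes and adherens junctions had 3 of 18 genes with a member, Dsp (desmoplakin, 6.23 kb upstream), Ctnnd1 (p120 catenin, 59.7 kb downstream) and Ctnnb1 (beta catenin, 9.88 kb upstream). The Ctnnd1 member, at place 142, held 3 SOX cores, and the Ctnnb1 member held none. In the actin cytoskeleton and migration list, 4 of 37 had a member: Tpm1, Vcl (vinculin, 26.1 kb upstream), Tmsb4x (thymosin beta, 23.96 kb upstream) and Cdc42 (a small GTPase, 9.81 kb upstream). The list of the Hippo pathway had 3 of 16, Sav1 (11.4 kb upstream), Amotl2 (43.2 kb upstream for its earlier member) and Cyr61 (24.9 kb upstream), of which Cyr61 is a known YAP and TEAD target. The Cyr61 member and the earlier Amotl2 member held a TEAD core, and the Sav1 member and the later Amotl2 member, 24.7 kb downstream, held none, so 2 of 4 beside 24.97% of all members.

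Keratinocyte transcription factors had 4 of 23 genes with a member, Runx1 (78.0 kb upstream), Maf, Tcf7l2 (28.8 kb upstream) and Lhx2 (65.6 kb downstream). The Runx1 member, at place 217, had an AP-1 core and no SOX core, and the Lhx2 member had neither although it stood at place 49 of the SOX4 list. The Notch pathway had 4 of 19, the receptors Notch1 (16.7 kb upstream) and Notch3 (3.06 kb upstream) and the coactivators Maml2 (67.5 kb upstream) and Maml3 (76.0 kb upstream). The TGF-beta and BMP list had 4 of 25, among them the receptor gene Tgfbr2 (43.7 kb upstream) and the repressor gene Tgif1 (9.29 kb downstream, place 183).

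MAPK feedback had 1 of 15 (Dusp7, 2.83 and 17.8 kb downstream) and the cornified envelope and late differentiation list 1 of 20 (Lce1m, 6.65 kb upstream), while 15 of 15 and 13 of 20 were the nearest gene of some SOX11 peak. None of the listed genes had a member in the lists of 11 EGF receptors and ligands, 26 Wnt pathway genes, 20 wound proteases and inhibitors and 18 SOX genes. The Wnt and EGF lists do not hold every gene of their pathways. Outside them, and named after their values were seen, the Wnt receptor gene Fzd4 (41.0 kb downstream, place 1016), the ligand gene Wnt8b (35.9 kb upstream), the kinase gene Gsk3b (70.7 kb upstream) and the ERBB ligand gene Nrg1 (29.4 kb upstream) had a member. So did Ctnnb1 (place 1502) and Tcf7l2 (place 759), effectors of Wnt signalling that stood on other lists. Of the 4 lists without a member, 10, 20, 14 and 14 genes were the nearest gene of at least 1 SOX11 peak of any class.

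**Figure D5:**
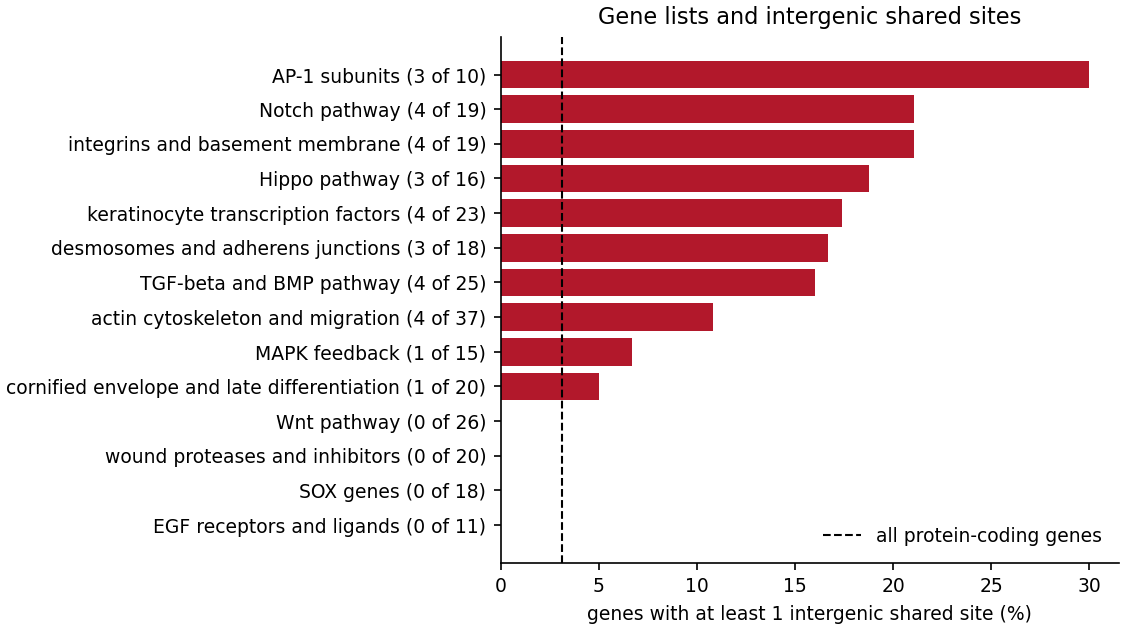
Percent of the annotated genes of each list that had at least 1 intergenic shared site by nearest start, with counts in brackets. The dashed line marks the 3.11% of all protein-coding genes, and bars are descriptions without a test.

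Keratin genes were looked at after the earliest members had been seen. Of 50, 6 (12%) had a member, beside 3.11% of all protein-coding genes. Krt42, one of those earliest members, is among the 6. How many keratin genes were nearest to any SOX11 peak is not given, and the share was not tested. Each of the 6 members lay upstream of its gene, as did 67.1% of all members. Krt6a, a keratin of wound-edge and follicle keratinocytes, had its member 3.29 kb upstream at place 129 of the SOX11 list and 153 of the SOX4 list, with a SOX and an AP-1 core. Krt42 and Krt74 (7.08 kb upstream) had members at places 15 and 55. Krt19 had its member 20.5 kb upstream at place 684, Krt31 17.3 kb upstream at 798 and Krt75 10.6 kb upstream at 3108.

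Nearest genes were also compared for a peak at their own promoter. Of the members, 220 (28.9%, interval 25.8 to 32.2) were nearest to a gene with any SOX11 promoter peak, against 28.5% of SOX11-only intergenic sites (odds ratio 1.02, 0.865 to 1.21, Fisher's exact test, unadjusted p = 0.80) and 23.1% of all protein-coding genes. A shared SOX11 and SOX4 promoter site was present at the nearest gene of 43 members (5.65%, interval 4.22 to 7.53) and of 3.59% of SOX11-only intergenic sites (odds ratio 1.61, 1.15 to 2.26, Fisher's exact test, unadjusted p = 0.0086). Among the first 5000 peaks, a setting added after the data had been seen, it was 1.44 (Fisher's exact test, p = 0.14). These intervals and tests counted sites, while the 23.1% counted genes. Sites nearest to the same gene share its promoter peak and are not independent, so the intervals and p-values are too narrow and too small. The earliest of the 43 were those of Krt42, Ptma, Kctd15, Laptm4a and Ttc21b. Cdk19 had its shared promoter site beside 3 members, and Itgb1, Cdc42 and Gsk3b were among the rest.

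Non-coding genes were left out of the rule, and 70 members (9.20%, interval 7.34 to 11.5) lay in one, with 18 in its promoter, 8 in an exon and 44 in an intron. The share was 8.26% in SOX11-only intergenic sites. After Malat1, the earliest promoter member was that of B230206F22Rik, 402 bp upstream of its start at place 51. The promoter of Dleu2, a non-coding gene that hosts microRNAs, had a member 20 bp upstream of its start, at place 13210. Pvt1, a long non-coding gene beside Myc, had a member in an intron at place 300, 96.0 kb downstream of the Myc start.

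MicroRNA genes within 5 kb of a member included Mirlet7i, 126 bp past its start, with 2 SOX cores at place 1927. A member at place 153 lay 4152 bp upstream of Mir183, a microRNA known from sensory organs, and had Nrf1 as its nearest coding gene. The member beside Mir30a was 1123 bp upstream and held both cores, and that of Mir7b was 765 bp upstream and held neither. These non-coding genes were named after their values had been seen.

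Members were found on 20 chromosomes. Of the 6477 SOX11 peaks between genes and within 100 kb of a start, the 761 members made 11.7%. That share was 8.25% on chromosome 11 (33 of 400) and 14.6% on chromosome 8 (41 of 280), the lowest and the highest.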

How the data were processed

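According to the methods and the submitters' processing notes, the authors aligned reads to mm9 (Bowtie2), took out duplicates (Picard), called peaks in factor style (HOMER) and dropped blacklisted regions (bedtools). Tool versions are not given in the sources used here. The deposited values are peak positions, with no count, height or score. Starts were taken as 0-based and are given 1-based.

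Peaks were joined and placed with Python 3.11.15, numpy 2.4.6 and pandas 2.3.3, and the overlap was checked with bedtools 2.31.1. Sequences came from the NCBIM37 (mm9) genome through pysam 0.24.0, and genes from GENCODE M1. Shares have 95% Wilson intervals. Peaks of different classes were compared by 2-sided Fisher's exact tests in scipy 1.17.1, with Benjamini-Hochberg adjustment over 27 motif tests (9 motifs and 3 classes) and a threshold of 0.05. Peaks of 1 list are not replicates, so these tests compare classes of peaks in these lists and not conditions. The steps were tested on simulated data. Figures were drawn with matplotlib 3.10.9.

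Genes were named by rule: the 10 members earliest in the SOX11 list, the genes with the most members, the 3 members nearest to a start, the 3 just inside and the 3 sites just outside the limit, up to 4 genes of each of 14 lists, and the 5 earliest members with both cores. Sites of chromosome 18 are counted but not printed, and a few other items are not reported here. The members and the lists were chosen with earlier results of these data known.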

Additional observations from a re-analysis of the deposited data

How the results depend on the processing

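The 12 results were recomputed under 62 alternatives in all, 3 of them chosen after seeing the data, and 42 of these kept the direction and the side of the threshold, or for a count stayed within 1.5 times. The number of members lay between 587 (50 kb limit) and 794 (all annotated genes). The SOX difference from SOX11-only intergenic sites and the AP-1 difference from shared promoter sites kept both under every alternative run for them, with odds ratios of 3.22 to 4.195 and 4.08 to 9.96.

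The following did not, and the cause was not tested. Apart from the count of passed tests, the values are odds ratios of members over the other class. For SOX and AP-1 in the same member, the odds ratio instead compares members with and without the SOX motif. The SOX core against shared promoter sites gave 1.24 within 50 bp of the centre, 1.00 at 40 to 60% G and C, 1.18 among the first 5000 peaks and, on the other side of 1, 0.903 at 50 to 60% G and C. Against shared intronic sites it turned to 1.10 with the 10-letter motif and 1.005 among the first 5000 peaks. The AP-1 core against shared intronic sites gave 1.31 within 50 bp, 1.17 with the 10-letter motif and 1.19 at 40 to 60% G and C; against SOX11-only sites it gave 0.784 with the 10-letter motif and turned to 1.02 among the first 5000 peaks. SOX and AP-1 in the same member turned to 1.15 with the 10-letter motifs. Place in the list against promoters gave 0.764 for the first 10% and 0.629 with at least 50% of the SOX4 peak covered; against introns it turned to 1.01 for the first 10% and gave 0.981 by the SOX4 list. A promoter peak at the nearest gene gave 1.61 for shared promoter sites, and turned to 0.993 with promoters of 1 kb to each side and 0.996 among the first 5000 peaks. The count of passed tests for other motifs moved from 3 to 1 within 50 bp.

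No paired analysis was possible because both replicates of a factor stand behind 1 list, and for the same reason no replicate was left out. The lists give no height, so no stricter calling threshold was tried.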
